A study of Arabidopsis thaliana with 12 samples.

Results

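The genes described here are 5 nuclear genes of Arabidopsis thaliana for organelle RNA factors: the pentatricopeptide repeat (PPR) genes AT3G49740, AT4G04370 and AT4G21170, the mTERF family gene AT1G79220, and PAC (AT2G48120), also called PALE CRESS. They are 5 of the 691 genes to which a probe of the array is assigned alone, and each had 1 such probe. The genes were chosen by name from an earlier analysis of the same intensities, with their difference between prors1 and WT in view, so their levels and folds are given as a description and carry no test.

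The series compared WT plants of ecotype Columbia 0 with the prors1 mutant, both dark adapted overnight, in 6 samples titled WT and 6 titled prors1. Per the labels the mutant lacks prolyl tRNA synthetase, which attaches proline to its transfer RNA, and they give neither the allele nor the tissue or age of the plants. The source label reads WT for all 12 samples, so the groups rest on the titles, and 0 probes name PRORS1, whose level was not analysed here. Samples 1 and 2, 3 and 4, and 5 and 6 of a group differed by a median of 0.135 to 0.233 on the log2 scale, against 0.349 to 0.424 for other samples of the same group. The titles name no arrays or pairs. On this agreement alone each such pair was averaged as 2 readings of 1 array, which left 3 presumed arrays per group, called arrays below. Nothing in the labels ties the arrays to separate plants, so standard errors and p-values measure array-to-array spread that may be only technical.

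PRORS1 serves translation in both plastids and mitochondria. The genomes of these organelles encode only part of the proteins the organelles need, and their transcripts depend on RNA-binding proteins imported from the cytosol. PPR proteins form the largest such family of plants. They are chains of short helical repeats that recognise particular organelle transcripts, and they act in splicing, editing, end processing, stability and translation of RNA. mTERF proteins, named after a human mitochondrial transcription termination factor, are also built of helical repeats and act on organelle DNA or RNA. PAC is a plastid protein required for chloroplast development, RNA maturation and ribosome assembly, and plants without it are pale.

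The values are intensities on a linear scale that starts at 0 and ends at 100, and the unit of the scale is unknown. The median of the values above 0 was 0.224 to 0.289 in the WT samples and 0.407 to 0.520 in the prors1 samples, so a typical probe read higher in prors1 before any scaling. Between 412 and 519 of the 3439 probes of a sample were listed at 0. Of 27 markers of green tissue, root, flower and pollen, and seed, 5 had a probe of their own, all of them photosynthesis genes. The photosystem II subunits PSBW and PSBY read 11.4 ± 0.310 and 1.42 ± 0.252 in WT (SD, n = 3 arrays) and 33.2 ± 8.81 and 1.41 ± 0.167 in prors1. The antenna gene LHB1B2, the photosystem I subunit PSAN and the Calvin-Benson enzyme PRK read 24.9 ± 6.37, 3.49 ± 0.206 and 1.13 ± 0.0391 in WT and 13.9 ± 4.79, 3.01 ± 0.705 and 0.919 ± 0.134 in prors1. These markers were present in both groups and did not share a direction. Precision is limited throughout by the small number of arrays.

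The 5 genes differed between prors1 and WT in both directions. AT3G49740 was lower in prors1, AT4G04370, AT4G21170 and AT1G79220 were higher, and PAC was equal in deposited intensity but lower relative to the other probes. In RNA of whole samples, fewer cells that express a gene and less RNA per cell cannot be told apart. On the deposited scale all 6 prors1 samples lay above all 6 WT samples for 3 of the 5 genes, and below them for 1. Over the 2908 tested probes these shares were 39.6% and 3.54%. After quantile normalization the prors1 samples lay above for 2 genes and below for 2, against 13.9% and 15.7% of the tested probes. The rule used this contrast, so nothing is read from these counts.

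**Figure D1:**
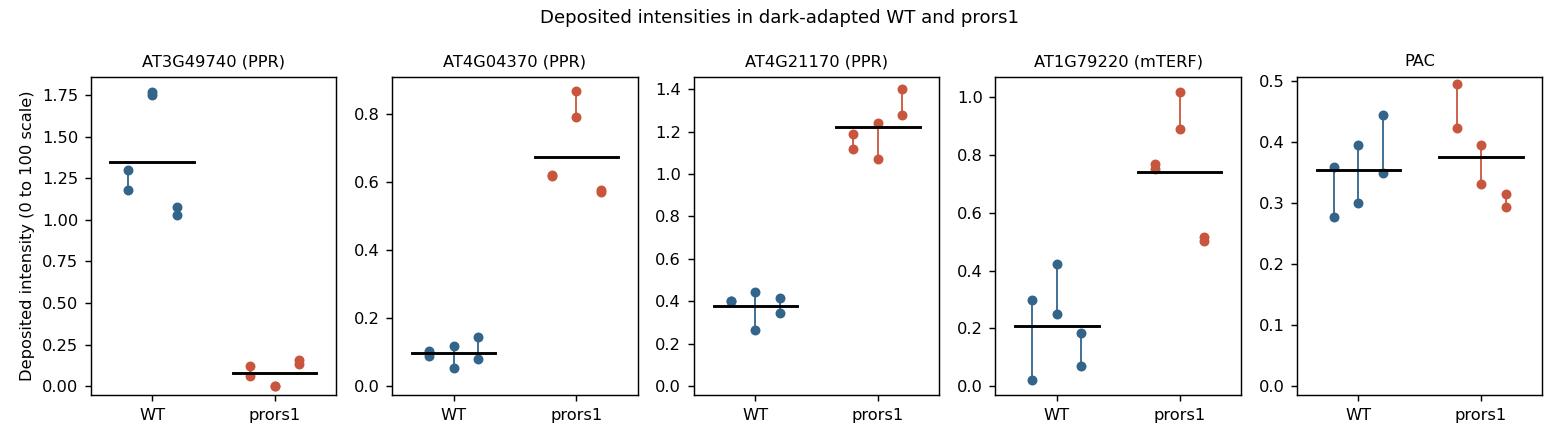
Deposited intensity (linear scale, 0 to 100) of the 5 genes in WT and prors1, with a separate vertical axis for each gene. Points are single samples, a line joins the pair of samples averaged as 1 array, and the black bar is the mean of the 3 arrays. The groups are apart for AT3G49740, AT4G04370, AT4G21170 and AT1G79220 and overlap for PAC.

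AT3G49740, a PPR gene, had intensities of 1.24, 1.76 and 1.05 on the 3 WT arrays. On the 3 prors1 arrays it read 0.0909, 0 and 0.146. The highest prors1 sample, at 0.158, was far below the lowest WT sample, at 1.03, and both samples of prors1 array 2 were listed at exactly 0. With the zeros included the mean was 1.35 ± 0.366 in WT and 0.0791 ± 0.0739 in prors1 (SD, n = 3 arrays), a ratio of 17.1.

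After log2 transformation and quantile normalization, with values of 0 left out, the log2 fold of AT3G49740 (prors1 over WT) was -4.47 ± 0.44 (SE, from 3 WT and 2 prors1 arrays). It was the lowest signed fold of the 2908 tested probes, which leave out probes with more values of 0 in a group. Its size is uncertain, since the prors1 readings lie at or near the floor. The fold rests on prors1 arrays 1 and 3, which differ from each other: without array 1 it was -3.72 and without array 3 it was -5.22, each time from a single prors1 array, assumed to vary like the WT arrays. With the zeros kept and a pseudocount of 0.0297 it was -4.53 ± 0.46. The WT readings of this probe were close, with the samples of an array 0.05 apart on the log2 scale on average, while the prors1 readings, near the floor, were 0.75 apart.

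AT4G04370, also a PPR gene, differed in the opposite direction. It read 0.0952, 0.0850 and 0.112 on the WT arrays and 0.620, 0.830 and 0.574 on the prors1 arrays. The lowest prors1 sample, at 0.571, was above the highest WT sample, at 0.143, so the groups do not overlap. The mean was 0.0973 ± 0.0135 in WT and 0.675 ± 0.137 in prors1 (SD, n = 3 arrays), a ratio of 6.94.

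The quantile-normalized log2 fold of AT4G04370 was 1.90 ± 0.24 (SE, 3 arrays per group), or 3.74-fold. On the values as deposited it was 2.84 ± 0.28, where the median over all tested probes was 0.77. Among the 581 tested genes with a probe of their own, 17 had a larger fold. Leaving out any 1 array gave log2 folds from 1.76 to 2.02, and with the pseudocount the fold was 1.63. The WT readings, which lie low on the scale, were less repeatable: the samples of a WT array were 0.67 apart on the log2 scale on average, those of a prors1 array 0.07.

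AT4G21170, the third PPR gene, had closely grouped array means on the deposited scale. It read 0.402, 0.354 and 0.378 on the WT arrays and 1.15, 1.16 and 1.34 on the prors1 arrays. The WT samples reached from 0.265 to 0.443 and the prors1 samples from 1.07 to 1.40, with no overlap. The mean was 0.378 ± 0.0241 in WT and 1.22 ± 0.107 in prors1 (SD, n = 3 arrays), a ratio of 3.22. Its quantile-normalized log2 fold was 1.09 ± 0.28 (SE), or 2.13-fold. This is the smallest size among the 3 PPR genes, and it ran from 0.90 without prors1 array 3 to 1.27 without prors1 array 2.

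AT1G79220, the mTERF family gene, was higher in prors1 with a wide spread in WT. It read 0.159, 0.335 and 0.128 on the WT arrays and 0.761, 0.953 and 0.511 on the prors1 arrays. Array 2 was the highest of the 3 in both groups. The samples of WT array 1 read 0.297 and 0.0213, so the 2 readings of this array disagree by more than the arrays do. The WT samples of this probe were 1.80 apart on the log2 scale within an array on average, the prors1 samples 0.07.

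The deposited mean of AT1G79220 was 0.207 ± 0.112 in WT and 0.742 ± 0.222 in prors1 (SD, n = 3 arrays), a ratio of 3.58. On this scale the groups do not overlap, since the highest WT sample was at 0.422 and the lowest prors1 sample at 0.503. After quantile normalization they do overlap. The log2 fold was then 1.46 ± 0.40 (SE), and it ran from 1.15 without WT array 1 to 1.91 without WT array 2.

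PAC, the plastid protein gene, had deposited intensities that overlapped between the groups. It read 0.319, 0.348 and 0.396 on the WT arrays and 0.460, 0.364 and 0.304 on the prors1 arrays. Prors1 array 1 was the highest of all 6 while prors1 array 3 was the lowest. The mean was 0.355 ± 0.0389 in WT and 0.376 ± 0.0787 in prors1 (SD, n = 3 arrays), a ratio of 1.06.

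Relative to the other probes PAC was lower in prors1. Its quantile-normalized log2 fold was -0.82 ± 0.25 (SE), and the prors1 samples then lay below all WT samples. Without scaling the log2 fold was 0.08 ± 0.28, within its error of 0, while the median over all tested probes was 0.77. Median scaling and cyclic loess gave -0.82 and -0.81.

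**Figure D2:**
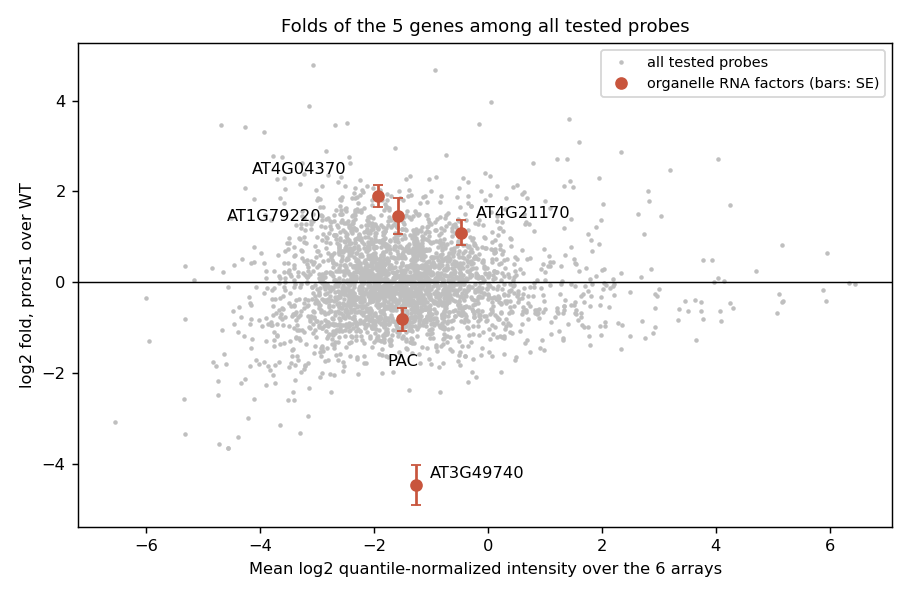
Log2 fold (prors1 over WT) against mean log2 quantile-normalized intensity over the 6 arrays, for the 2908 tested probes (grey) and the 5 genes (red, bars are SE). AT3G49740 lies below every other tested probe, AT4G04370, AT1G79220 and AT4G21170 lie above 0, and PAC lies below 0 within the main cloud.

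The 5 genes did not share a direction. With quantile normalization 3 of the 5 log2 folds were above 0 and 2 below, with a median of 1.09, beside a median of -0.06 over all tested probes. Of the 5 genes, 4 differed by at least 2-fold, against 23.6% of the tested probes. All 5 passed the filter on values of 0, AT3G49740 with the smallest number of samples that it allows, 4 of 6 in prors1. PAC, with the smallest size of fold, was the gene that fell short of 2-fold. AT4G21170 also fell short under median scaling, with a log2 fold of 0.80. The same held without WT array 2 (0.93) and without prors1 array 3 (0.90).

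The rank of a probe among all 3439 probes of its array does not depend on any scaling that keeps their order. AT3G49740 stood at percentile 93.0 ± 0.756 in WT (SD, n = 3 arrays) and at 14.7 ± 7.42 in prors1. The prors1 mean includes 6.81 for array 2, where the probe was listed at 0 and shares the average rank of all tied zeros. AT4G04370 stood at 28.1 ± 2.29 in WT and at 71.9 ± 4.05 in prors1. The array means of the groups do not overlap for these genes. Both were chosen on this contrast, so nothing is read from that distance.

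AT4G21170 stood at percentile 71.1 ± 6.96 in WT and 89.0 ± 3.58 in prors1 (SD, n = 3 arrays), and AT1G79220 at 45.5 ± 14.1 and 74.6 ± 7.20. PAC stood at 69.0 ± 6.80 in WT and 46.3 ± 6.48 in prors1. The array means of the groups do not overlap for these 3 genes either. Single samples do overlap for AT1G79220, where WT sample 3 stood at 69.7 and prors1 samples 5 and 6 at 67.1 and 66. The share of all probes with separate array ranks was not computed, and the genes were chosen on this contrast, so nothing is read from this separation. The distance between the groups was narrowest for AT1G79220, where WT array 2 stood at 61.3 and prors1 array 3 at 66.6.

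**Figure D3:**
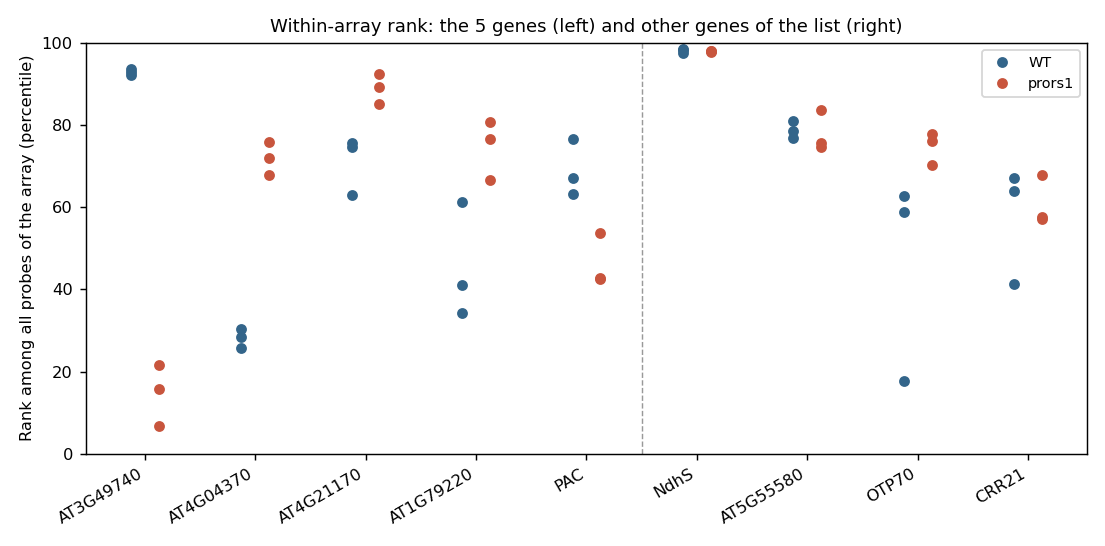
Rank of each gene's probe among all 3439 probes of its array (percentile, 100 is brightest), 3 WT arrays in blue and 3 prors1 arrays in red, for the 5 genes (left of the dashed line) and 4 other tested genes returned by the search by name (right). The arrays of the groups are separate for each of the 5 genes and for OTP70, and overlap for NdhS, AT5G55580 and CRR21. The share of all probes with separate arrays was not computed, and the 5 genes were chosen on this contrast. Nothing is therefore read from this separation or from the contrast with the other genes.

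The size of each difference depended on the scaling. The 3 genes above 0 had larger log2 folds on the values as deposited: 2.84 for AT4G04370, 1.70 ± 0.25 for AT4G21170 and 2.32 ± 0.50 for AT1G79220. That of AT3G49740 was then smaller in size, at -3.55 ± 0.38. Median scaling, cyclic loess and quantile normalization gave values close to each other, from 1.84 to 1.94 for AT4G04370, 0.80 to 1.15 for AT4G21170, 1.39 to 1.46 for AT1G79220 and -4.47 to -4.23 for AT3G49740.

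As an alternative added after seeing the data, a constant of 0.0888 to 0.128 was taken off each prors1 sample, so that its 25th percentile met that of WT. The log2 folds were then 2.59 ± 0.31 for AT4G04370, 1.57 ± 0.28 for AT4G21170, 2.09 ± 0.53 for AT1G79220 and -0.41 ± 0.30 for PAC. For AT3G49740 2 prors1 samples of 1 array kept a value above 0, which gave -4.57 with no usable error. Without scaling PAC lay within its error of 0, and the sign of the other 4 genes held under every scaling run. Probes numbered within 50 of each gene's own had median log2 folds of -0.26 to -0.07.

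**Figure D4:**
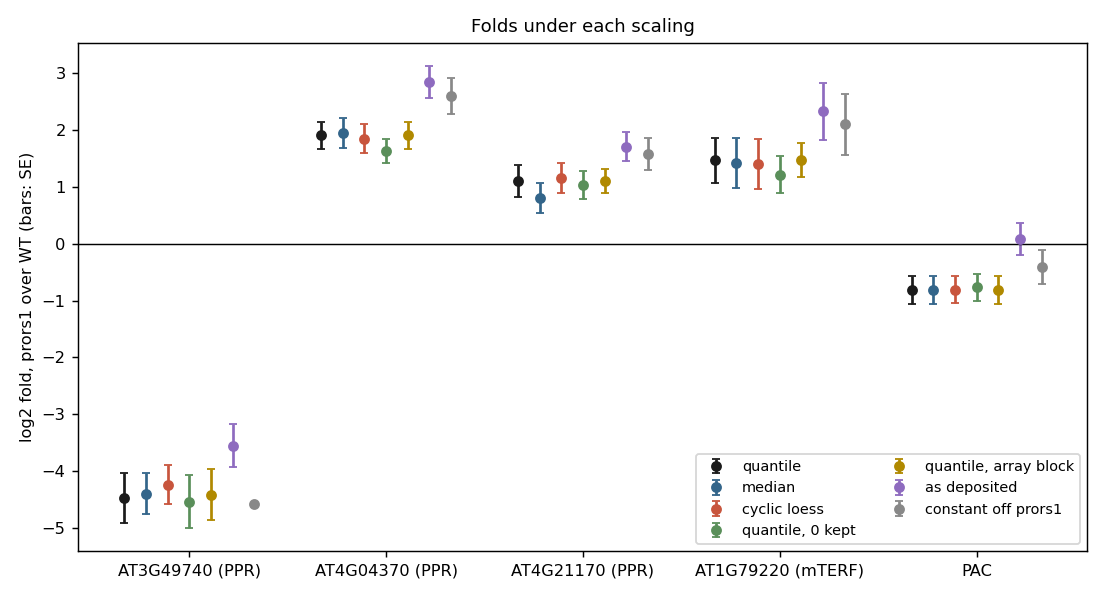
Log2 fold (prors1 over WT, bars are SE) of the 5 genes under 7 ways of scaling or fitting. AT3G49740 stays between -4.57 and -3.55, the 3 genes above 0 stay above 0, and PAC lies at 0.08 on the values as deposited and between -0.82 and -0.41 otherwise. The point without a bar rests on 1 prors1 array.

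The within-group pattern also differed between the genes. On the quantile-normalized scale WT array 2 gave the lowest WT value of AT4G04370, AT4G21170 and PAC, and the highest of AT3G49740 and AT1G79220. Prors1 array 2 gave the lowest prors1 value of AT4G21170 and PAC and the highest of AT4G04370 and AT1G79220, while AT3G49740 was listed at 0 there. So no array was uniformly high or low over the 5 genes.

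The genes with the most similar course over the arrays were found by the root mean square difference of log2 quantile-normalized levels, each gene centred on its own mean. For AT4G04370 the nearest of 572 genes were PSBW, a photosystem II subunit (0.144), and AT4G32060 (0.160), beside a median difference of 1.05 over all 572. For AT4G21170 they were AT5G64150 (0.163) and AT2G35390 (0.220), beside a median of 0.723. These comparisons used 6 arrays and include the difference between the groups.

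For AT1G79220 the nearest genes were AT3G02690 (0.187) and Cpn60beta4, a subunit of the plastid chaperonin (0.301), beside a median of 0.976. PAC was nearest to AT5G61470 (0.129) and AT1G72020 (0.151), beside a median of 0.568. For AT3G49740, over the 5 arrays where it was above 0, the nearest were AT5G17630, the plastid xylulose 5-phosphate translocator (1.07), and AT1G44920 (1.20), beside a median of 2.26. The log2 folds of these 2 genes were -2.43 and -1.93, smaller in size than that of AT3G49740.

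Other genes of organelle RNA metabolism were sought by symbol and synonym in the gene table, which returned 6 further genes with a probe of their own. Of these, NdhS (CRR31) and CRR41 are a subunit and an assembly factor of the plastid NADH dehydrogenase-like complex and not RNA factors. Among the 6, 4 were tested, and 0 passed limma's test at an adjusted p under 0.05, against 26.3% of all tested probes. At an unadjusted p under 0.05 the count was also 0, against 41.4% of all tested probes. The median log2 fold of the 4 was 0.07, and that of the 3 tested RNA factors among them 0.15, beside -0.06 over all tested probes. The gene table carries no protein descriptions, so PPR genes known only by a locus number are missing from this list.

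OTP70, a PPR protein required for splicing of a plastid transcript, read 0.255, 0.365 and 0.0440 on the WT arrays and 0.656, 0.871 and 0.640 on the prors1 arrays. WT array 3 stood far below the other WT arrays. Its log2 fold was 1.51 ± 0.69 (SE, limma adjusted p = 0.138), and 0.57 without WT array 3. On the values as deposited it was called higher, at 2.36 ± 0.76 (limma adjusted p = 0.0316).

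CRR21, a PPR protein required for editing of a plastid transcript, read 0.288, 0.172 and 0.300 in WT and 0.491, 0.527 and 0.533 in prors1. Its log2 fold was 0.15 ± 0.31 (limma adjusted p = 0.751), but as deposited it was called higher, at 1.07 ± 0.30 (limma adjusted p = 0.0179). AT5G55580, which encodes the plastid protein mTERF9, had a log2 fold of -0.01 ± 0.23 (limma adjusted p = 0.985). Its deposited intensity was 0.506 ± 0.139 in WT and 0.784 ± 0.0408 in prors1 (SD, n = 3 arrays). Neither the PPR genes nor the mTERF gene of this list passed the test after quantile normalization, and whether their folds differ from those of the 5 genes was not tested.

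NdhS had a log2 fold of -0.13 ± 0.24 (limma adjusted p = 0.724) and intensities of 4.39 ± 1.49 and 4.55 ± 0.908 (SD, n = 3 arrays), while median scaling gave -0.81 ± 0.27 (limma adjusted p = 0.0529). CRR41 and the PPR gene OTP85 were not tested. CRR41 was listed at 0 in 4 of 6 WT and 5 of 6 prors1 samples, and so was OTP85.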

How the data were processed

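The deposited table gives 1 intensity per probe and sample. How the authors scanned, corrected and scaled these intensities is not given in the sources used here. All 12 columns matched a sample by identifier (0 unmatched), and the titles gave groups and replicate numbers. Intensities of 0 were set to missing, and the log2 values of the others were quantile normalized across columns (limma 3.58.1, R 4.3.3) and averaged into 3 arrays per group. A probe was tested if each group had 4 or more of its 6 values above 0. The model, with group as its single term, was fitted with lmFit and eBayes and tested two-sided, and p-values were adjusted by Benjamini-Hochberg over the 2908 probes tested. The procedure was checked on simulated data.

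Names come from the platform annotation of 2016 and the TAIR10.1 gene table: 692 of 3439 probes name 1 gene, 870 several and 1877 none here. The annotation names no genome build, so no coordinates are printed. The 5 genes and the lists were chosen with earlier results of these data known. Named are the 5 genes, each tested gene returned by the search by name for organelle RNA factors and the 2 genes nearest to each of the 5, besides CRR41 and OTP85, which were named after their values were seen. Same-numbered arrays of the groups had correlated deviations of 0.183, 0.0827 and 0.238, not all above 0.1, and were therefore not treated as pairs. Alternatives covered scaling, zeros, averaging, the filter, the moderation, the array number as a block and the omission of each array.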

Additional observations from a re-analysis of the deposited data

Results flagged for a closer look

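Near the floor of the scale, 1 sample stood apart from the other 5 of its group for CRR41 in prors1 and for OTP85 in both groups. The gap of that sample to its neighbour, as a share of the whole range of the 6 samples, was 1 for CRR41 in prors1, where the other 5 samples were listed at 0. It was 0.908 for OTP85 in WT and 1 for OTP85 in prors1. The 6 samples were treated as 3 arrays read in pairs, and most of these values are exactly 0, where a share of 1 follows by construction. The usual chance rate of such a flag therefore does not apply. None of the 5 organelle RNA factors had such a sample in either group.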

How the results depend on the processing

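As deposited the median log2 fold of all tested probes was 0.77, against -0.06 after quantile normalization, and that of PAC was 0.08 ± 0.28 against -0.82. As deposited the other log2 folds were -3.55 (AT3G49740), 2.84 (AT4G04370), 1.70 (AT4G21170) and 2.32 (AT1G79220), and with the constant taken off 2.59, 1.57 and 2.09 for the last 3 and -0.41 for PAC. That of AT4G04370 was 1.63 with the pseudocount and 2.17 less the running median of 50 probe numbers on either side. This last setting and the constant were chosen after seeing the data. Leaving out 1 array gave -5.22 to -3.72 for AT3G49740, 1.76 to 2.02 for AT4G04370, 0.90 to 1.27 for AT4G21170, 1.15 to 1.91 for AT1G79220 and -0.96 to -0.66 for PAC. With the array number as a replicate block the folds were -4.41, 1.90, 1.09, 1.46 and -0.82 in the same order of genes, and no sign turned under the block.

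The 764 called probes became 1332 as deposited and 1443 with the 6 columns as separate samples, and 840 with the replicate block. Leaving out 1 array gave 393 to 562, with 486 and 446 without WT array 1 or 3 and 465 and 393 without prors1 array 1 or 2, where fewer samples were fitted. Higher probes made up 48.7% of the calls, 93.8% as deposited and 78.2% with the constant taken off. Of the 6 other genes returned by the search by name 4 were tested, and 0 of these were called. As deposited 2 of the 4 were called (OTP70 and CRR21), beside 1332 of the 2908 tested probes. With the columns separate 1 was called (OTP70, adjusted p = 0.0467 by limma), beside 1443 of the 2908, and with any 1 array left out 0. With no filter on values of 0 CRR41 of the NADH dehydrogenase-like complex had a log2 fold of -4.8, from 1 array per group. NdhS turned to 0.09 as deposited, 0.26 under cyclic loess and 0.06 with the constant taken off and was at -0.81 (limma adjusted p = 0.0529) under median scaling, while AT5G55580 turned to 0.67 as deposited, 0.05 under cyclic loess and 0.45 with the constant taken off. With 1 array left out NdhS ran from -0.30 to 0.02, AT5G55580 from -0.16 to 0.08, CRR21 from -0.16 to 0.35 and OTP70 from 0.57 to 2.01. The causes of these shifts were not tested. The mean over several probes of a gene could not be run, since each of the 5 genes has 1 probe.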
